A study of Mus musculus with 6 samples.

Results

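The heat shock protein and DnaJ chaperone genes were followed in CD31+ cells sorted from the retina of mouse pups with and without a Cre recombinase that acts on Rnf20. The genes were taken by symbol: Hspa, Hspb, Dnaja, Dnajb and Dnajc genes with a number, every Hsp90 gene, and Hspd1, Hspe1 and Hsph1. This gave 70 of the 19124 symbols in the deposited table. They comprise 8 small heat shock protein genes, 11 HSP70 genes, 3 HSP110 genes, 3 HSP90 genes, the HSP60 gene Hspd1 with its partner Hspe1, and 43 DNAJ genes (4 of class A, 12 of class B and 27 of class C). Membership rested on names and on no measured value, but the rule was chosen with earlier results of these data known.

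The KO group held 3 pups labelled Pdgf{beta}CreERT2pos Rnf20p/p, and the Ctrl group held 3 labelled Pdgf{beta}CreERT2neg Rnf20p/p. All 6 were C57BL/6 pups that carried the same Rnf20p/p alleles and received 75 µg of Z-4-HO-Tamoxifen a day between postnatal days 1 and 4, so the groups differed by the Cre and not by the drug. Retinas were taken at day 7, when vessels are sprouting across the tissue, and each library came from a different pup. Tamoxifen activates CreERT2, a recombinase that the labels place under Pdgf{beta}. What stretch of Rnf20 it removes is not in the labels. Rnf20 encodes an E3 ubiquitin ligase that marks histone H2B, and the series title names its amount, VEGF and Notch signalling in sprouting vessels as the question.

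Chaperones hold unfolded proteins and help them reach or regain their shape. HSP70 proteins bind exposed stretches of a client in a cycle driven by ATP. DNAJ proteins deliver clients to HSP70 and start the hydrolysis of ATP, exchange factors such as the HSP110 proteins and the BAG proteins release the nucleotide, HSP90 acts later on kinases and receptors, and small heat shock proteins keep unfolded clients from clumping. The transcription factor Hsf1 induces many of these genes through the heat shock element, and stress in the endoplasmic reticulum (ER) induces the ER members through another element. In endothelial cells HSPB1 is phosphorylated after VEGF stimulation and acts on actin during migration.

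The KO libraries held 25016982 to 30692948 counts and the Ctrl libraries 14581701 to 28969300. Rnf20 itself had 39.1, 31.0 and 31.7 CPM (library-size-scaled counts, with TMM factors) in KO 1, 2 and 3, against 47.9, 57.1 and 56.8 CPM in Ctrl 1, 2 and 3. The groups did not overlap, but the difference missed the threshold of the quasi-likelihood test of edgeR (log2 fold change −0.67, adjusted p = 0.101). Rnf20 passed in 2 of 16 alternatives. These were without KO 1 (−0.71, edgeR adjusted p = 0.0373) and with libraries scaled to equal endothelial markers (−1.97, adjusted p = 0.00215). The latter scaling moved the median of all genes to −1.30. Rnf20 missed the threshold by DESeq2 (−0.64, adjusted p = 0.0749) and limma-voom (−0.67, adjusted p = 0.0972). With offsets for the guanine and cytosine content of transcripts it was −0.43 (edgeR adjusted p = 0.112). All 15 endothelial markers were detected in every library and summed to 10660 to 15108 CPM in KO and 3431 to 5296 CPM in Ctrl. Markers of other cells were present as well. The 14 photoreceptor markers summed to 4995 to 24452 CPM in KO and 19523 to 34846 CPM in Ctrl. Of 6 erythroid markers that passed the filter, 5 rose in KO by edgeR (83.3%, against 5.85% of all genes). KO 1 stood apart in the content of guanine and cytosine (GC) of the transcripts it held in excess. KO 2 stood apart in its 14 microglial markers, which summed to 12995 CPM, against 238 and 2490 CPM in KO 1 and KO 3 and 257 to 1549 CPM in Ctrl. It also had the highest sum of 12 Müller glia and astrocyte markers, at 17550 CPM. This stood against 2993 and 6173 CPM in KO 1 and KO 3 and 2592 to 3377 CPM in Ctrl. The mean log2 level over these 12 markers differed less, at 6.31, 7.12 and 6.81 in KO 1, 2 and 3 and 5.97 to 6.40 in Ctrl. Over the 14 microglial markers it was 2.62, 8.87 and 6.35 in KO 1, 2 and 3 and 3.48 to 6.18 in Ctrl.

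Few chaperone genes differed between KO and Ctrl, and those that did went in both directions. The genes that rose were the small heat shock protein genes Hspb1, Hspb2 and Hspb8 and the endothelial HSP70 gene Hspa12b. The genes that fell were the HSP110 gene Hspa4l and the DNAJ genes Dnajc6 and Dnajc28. Of the 70 genes, 67 had enough counts to be tested. By the quasi-likelihood test of edgeR, with p adjusted after Benjamini and Hochberg over 16217 genes and a threshold of 0.05, 7 of the 67 (10.4%) passed, against 10.3% of all genes tested. The 4 that rose stand beside 5.85% of all genes and the 3 that fell beside 4.44%, so the share of chaperone genes called was near that of all genes. The median log2 fold change was −0.0071 over the 67 and 0.027 over all genes.

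The KO libraries lay above all Ctrl libraries for 12 of the 67 genes, against 19.0% of all genes, and below all of them for 15, against 18.9%. At an unadjusted p below 0.05, 17 of the 67 passed, against 30.5% of all genes. The number past the threshold depended on which library was left out. Without KO 1 it was 18 of 68 (10 higher and 8 lower, against 29.7% of all genes), and without KO 3 it was 3 (Hspb1, Hspa4l and Dnajc6, against 5.23% of all genes). Without KO 2, Ctrl 1, Ctrl 2 or Ctrl 3 it was 0 by edgeR, as it was for all genes (0.0%), with 13, 12, 16 and 15 chaperone genes at an unadjusted p below 0.05, against 21.6%, 24.2%, 20.5% and 20.8% of all genes. With all libraries DESeq2 called 15 (against 22.1% of all genes) and limma-voom 8 (against 11.8%), among them all 7. With no filter on low counts Hspb2 and Hspa12b missed the threshold (edgeR adjusted p = 0.0517 and 0.0549). The RNA comes from bulk cells, so a change in the share of a cell type and a change in RNA per cell cannot be told apart.

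**Figure D1:**
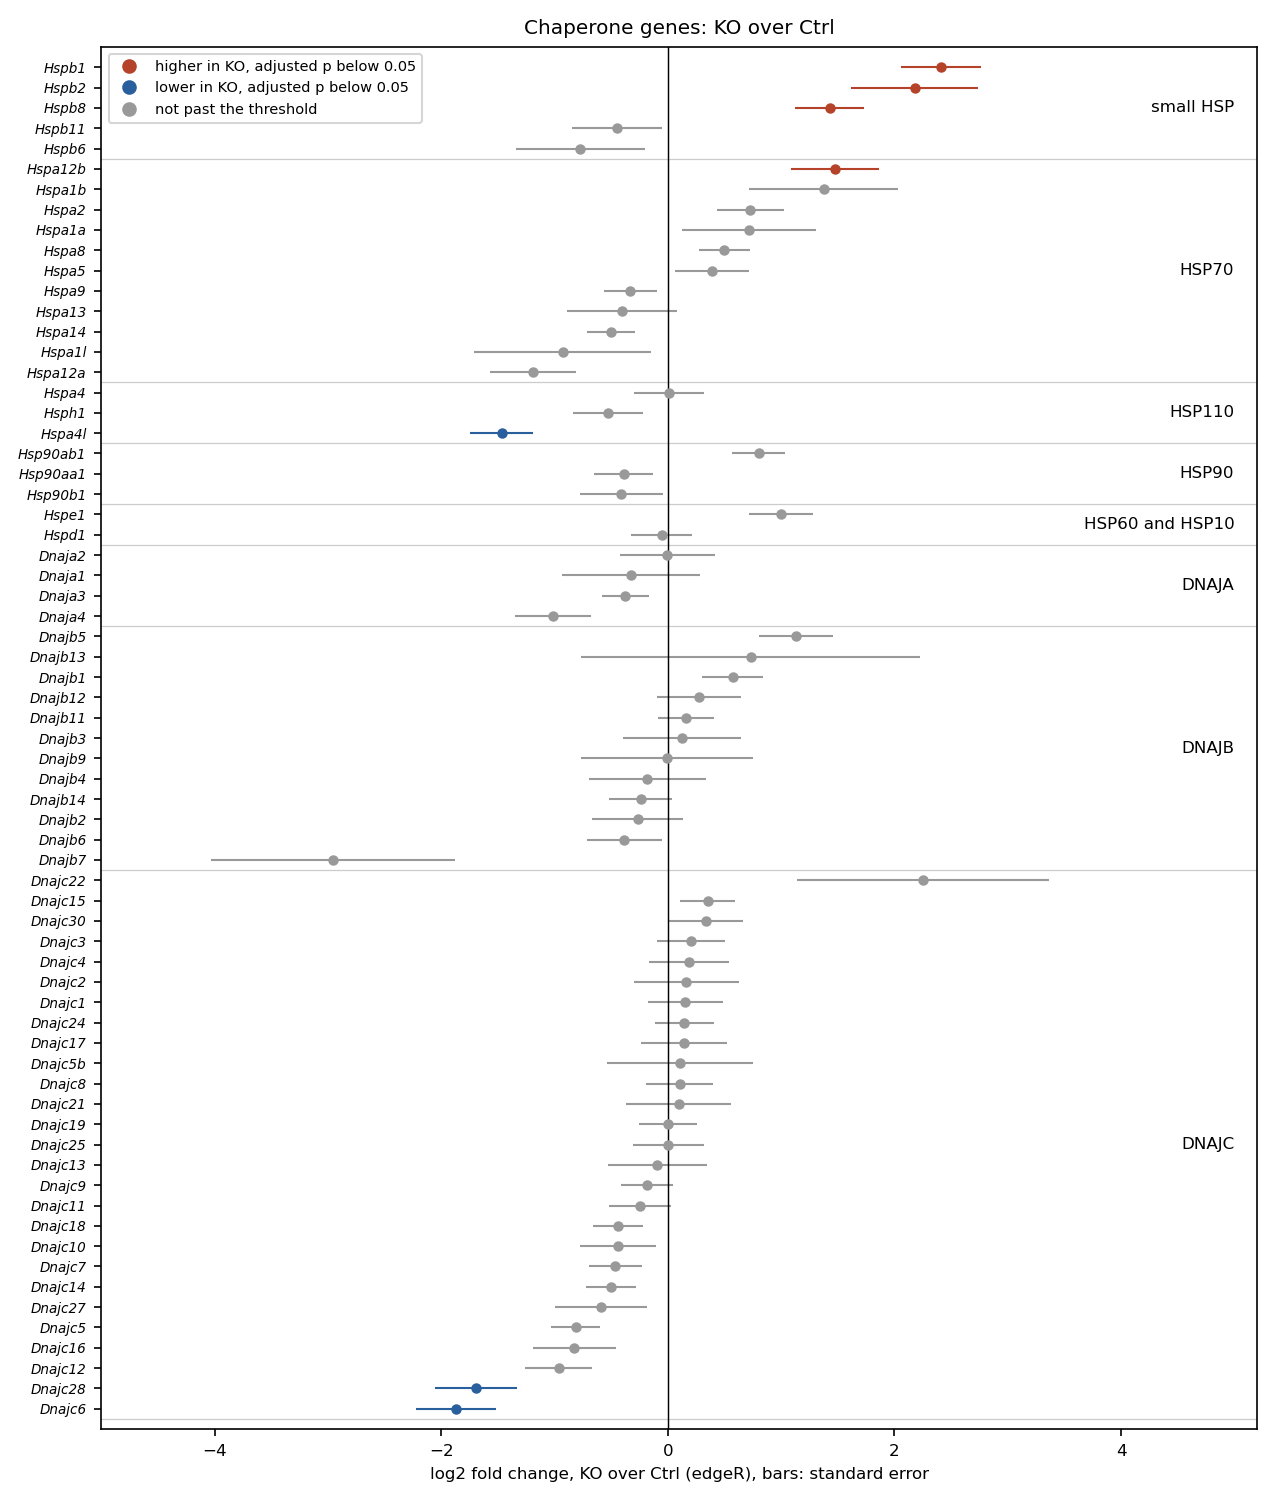
Log2 fold change of KO over Ctrl (horizontal axis, edgeR, with standard error bars) for the 67 chaperone genes tested, grouped by family down the page. Red points rose and blue points fell at an adjusted p below 0.05, and grey points did not pass. The 4 red points are Hspb1, Hspb2, Hspb8 and Hspa12b, and the 3 blue points are Hspa4l, Dnajc28 and Dnajc6.

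The small heat shock protein genes held 3 of the 4 that rose. Of the 8, 5 were tested, of which 3 rose (60%, against 5.85% of all genes) and none fell (against 4.44%). Hspb3, Hspb7 and Hspb9 had at most 20, 17 and 6 counts in any library and were left out by the filter on low counts. Hspb1 (NM_013560) encodes the small heat shock protein that binds actin filaments and unfolded clients. It lies on chromosome 5 of GRCm38.p6, at 135887919 to 135889563.

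Hspb1 had 14.6, 23.7 and 20.4 CPM in KO 1, 2 and 3, against 3.59, 2.97 and 4.50 CPM in Ctrl 1, 2 and 3. Each KO library was above each Ctrl library by a wide gap. These levels rest on 372, 596 and 596 counts in KO and 105, 72 and 69 in Ctrl. The mean was 19.6 ± 4.64 CPM in KO and 3.69 ± 0.768 CPM in Ctrl (SD, n = 3 each), a 5.32-fold rise and a log2 fold change of 2.41 (SE 0.352, edgeR adjusted p = 0.0211). It had the largest log2 fold change among the 67. Leaving out each library in turn gave 2.28 to 2.66.

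The promoter of Hspb1 is printed because it carries a short form of the heat shock element, of 2 units, more than once. In RefSeq promoters (250 bases before to 50 after the start of each gene, GRCm38.p6) the motif GAANNTTC, which reads the same on both strands, occurred in 13 of the 56 chaperone genes that had a promoter (23.2%) and in 9.04% of 27025 genes. Among the 7 genes that rose or fell, Hspb1 and Hspb8 had a match. The other genes with one were Hspb3, Hspb6, Hspa1a, Hspa1b, Hspd1, Hspe1, Hsph1, Dnaja1, Dnaja4, Dnajb6 and Dnajc27. Hspb1 has 2 matches, in capitals here, at −117 to −110 and −97 to −90 from its start (chr5:135887769-135887858, plus strand).
Hspb1: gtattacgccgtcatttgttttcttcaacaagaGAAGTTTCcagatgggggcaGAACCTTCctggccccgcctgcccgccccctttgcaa
A match describes letters in this window and was not tested as a binding site. The other order of the 2 units, TTCNNGAA, was not searched on its own.

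Hspb8 (NM_030704, chromosome 5, 116408491 to 116422864) encodes the small heat shock protein that works with the BAG protein BAG3 in the removal of damaged proteins. It had 37.8, 35.0 and 32.3 CPM in KO 1, 2 and 3, against 8.99, 14.0 and 16.1 CPM in Ctrl 1, 2 and 3. The KO libraries lay close together and all above the Ctrl libraries. The mean was 35.0 ± 2.79 CPM in KO and 13.0 ± 3.65 CPM in Ctrl (SD, n = 3 each), a 2.69-fold rise and a log2 fold change of 1.43 (SE 0.303, edgeR adjusted p = 0.0301). Its single match to GAANNTTC lies just after the start, at 3 to 10.

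Bag3, the partner of Hspb8 and an HSP70 exchange factor, had 47.9, 49.4 and 43.8 CPM in KO 1, 2 and 3, against 8.75, 17.3 and 18.6 CPM in Ctrl 1, 2 and 3. As for Hspb8, the groups did not overlap and Ctrl 1 was the lowest library. The gene rose 3.17-fold (log2 fold change 1.66, SE 0.335, edgeR adjusted p = 0.0268). It did not pass with offsets for transcript GC content fitted to each library (GC offsets, 1.36, adjusted p = 0.0552) or with libraries scaled to equal endothelial markers (0.42, adjusted p = 0.352).

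Hspb2 (NM_001164708, chromosome 9, 50751072 to 50752354) encodes a small heat shock protein best known from muscle. It had 2.98, 4.26 and 3.57 CPM in KO 1, 2 and 3, against 0.410, 0.825 and 1.17 CPM in Ctrl 1, 2 and 3. The KO libraries were all above the Ctrl libraries, at 76, 107 and 104 counts in KO and 12, 20 and 18 in Ctrl. The log2 fold change was 2.18 (SE 0.559, 4.53-fold, edgeR adjusted p = 0.0468).

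The entry of Hspb2 overlaps that of its neighbour Cryab on the genome, and the reads carry no strand, so part of its counts can belong to Cryab. Cryab encodes alpha-B crystallin, a small heat shock protein of lens, muscle and glia. It had 66.5, 84.2 and 107 CPM in KO 1, 2 and 3, against 64.8, 39.1 and 69.1 CPM in Ctrl 1, 2 and 3. The groups overlapped and it did not pass the test (log2 fold change 0.57, edgeR adjusted p = 0.238).

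The other tested genes of the family did not pass. Hspb6, which encodes a small heat shock protein of smooth and heart muscle, had 19.4, 46.9 and 113 CPM in KO 1, 2 and 3, against 137, 81.7 and 87.5 CPM in Ctrl 1, 2 and 3. KO 1 was the lowest library and KO 3 lay among the Ctrl libraries. The remaining one, Hspb11, encodes a part of the intraflagellar transport machinery of cilia. The 12 mural markers (pericytes and smooth muscle) summed to 794, 559 and 332 CPM in KO 1, 2 and 3 and to 160, 348 and 815 CPM in Ctrl 1, 2 and 3. Of the 12 only Des, an intermediate filament gene of muscle and pericytes, was called higher (8.33%, against 5.85% of all genes). The log2 fold change was positive for 11 of the 12, against 51.0% of all genes, with a median of 1.14, against 0.027. For 5 of the 12 the KO libraries lay above all Ctrl libraries, against 19.0% of all genes. The part of the mural markers in the results for these genes was not tested.

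**Figure D2:**
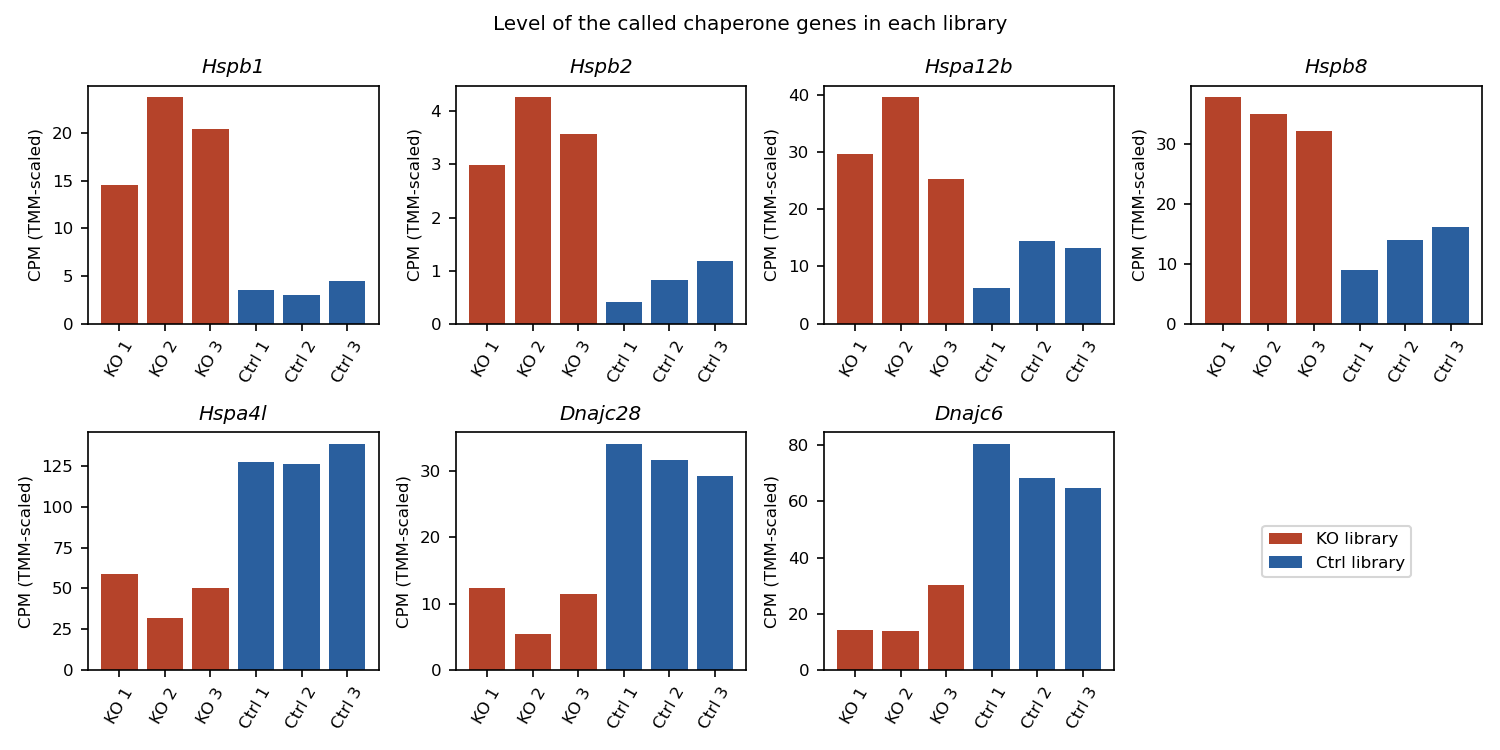
Level in CPM (vertical axis, TMM-scaled, from 0) of the 7 chaperone genes past the threshold, 1 panel a gene and 1 bar a library, with the 3 KO libraries in red left of the 3 Ctrl libraries in blue. In every panel the KO bars are all above or all below the Ctrl bars. Hspb1 reaches 14.6 to 23.7 CPM in KO and 2.97 to 4.50 CPM in Ctrl.

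Of the 11 HSP70 genes 1 was called (9.09%), which rose, and none fell, against 5.85% of all genes that rose and 4.44% that fell. Their median log2 fold change was 0.39, against 0.027 over all genes, and their values lay between −1.19 and 1.47. Hspa12b (NM_028306, chromosome 2, 131127412 to 131145985) encodes a distant HSP70 protein enriched in endothelium. It had 29.6, 39.5 and 25.2 CPM in KO 1, 2 and 3, against 6.22, 14.5 and 13.2 CPM in Ctrl 1, 2 and 3. The groups did not overlap, and Ctrl 1 was the lowest library. The mean was 31.4 ± 7.33 CPM in KO and 11.3 ± 4.47 CPM in Ctrl (SD, n = 3 each), a 2.78-fold rise and a log2 fold change of 1.47 (SE 0.386, edgeR adjusted p = 0.0493).

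The 15 endothelial markers moved with Hspa12b: 11 of them rose (73.3%, against 5.85% of all genes) and none fell (against 4.44%). Their median log2 fold change was 1.45, against 0.027 over all genes. With libraries scaled to equal endothelial markers Hspa12b had a log2 fold change of 0.22 (edgeR adjusted p = 0.657), Hspb8 0.16 (adjusted p = 0.725), Hspb2 0.94 (adjusted p = 0.241) and Hspb1 1.09 (adjusted p = 0.0633). The 3 genes that fell still passed, but this scaling moved the median of all genes to −1.30, so their pass is no separate check of their fall. No chaperone gene was called higher there by edgeR and 43 were called lower, against 0.432% and 50.9% of all genes, while 52 of the 67 had an unadjusted p below 0.05, against 58.5% of all genes.

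Hspa12a, the close relative of Hspa12b that is enriched in brain, had a log2 fold change of −1.19, which missed the threshold (edgeR adjusted p = 0.0788). Whether the difference between the pair exceeded the spread was not tested.

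The stress-inducible HSP70 genes Hspa1a and Hspa1b are neighbours on chromosome 17 with nearly the same sequence, so reads can be assigned to either. Hspa1a had 4.31, 22.1 and 6.99 CPM in KO 1, 2 and 3, against 6.05, 5.94 and 8.34 CPM in Ctrl 1, 2 and 3. Hspa1b had 1.29, 6.53 and 2.43 CPM in KO 1, 2 and 3, against 1.50, 1.32 and 1.11 CPM in Ctrl 1, 2 and 3. Both were highest in KO 2. For Hspa1a, KO 3 lay within the Ctrl range and KO 1 below it. For Hspa1b, KO 1 lay within the Ctrl range and KO 3 above it. Neither passed the test (log2 fold change 0.72 for Hspa1a, edgeR adjusted p = 0.445, and 1.37 for Hspa1b, adjusted p = 0.197). Without KO 2 the log2 fold change was −0.23 for Hspa1a and 0.53 for Hspa1b. Without KO 1 it was 1.84 for Hspa1b, which then passed (edgeR adjusted p = 0.0400). By summed CPM, KO 2 was also the library with the most microglial and Müller glia transcripts, and their part in these values was not tested.

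The promoters of the pair are shown because they account for the same motif. Hspa1a and Hspa1b are identical at 247 of the 250 bases before their starts (98.8%), and each has 1 match to GAANNTTC at −104 to −97. The stretch printed for Hspa1a (chr17:34972217-34972306, minus strand, match in capitals) has the same letters in Hspa1b (chr17:34959299-34959388, minus strand).
Hspa1a: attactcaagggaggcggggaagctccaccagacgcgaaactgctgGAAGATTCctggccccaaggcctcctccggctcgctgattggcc

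The constitutive HSP70 gene Hspa8 had 191, 259 and 211 CPM in KO 1, 2 and 3, against 153, 154 and 161 CPM in Ctrl 1, 2 and 3. The KO libraries were all above the Ctrl libraries, which lay close together. Its log2 fold change of 0.50 (SE 0.225) missed the threshold (edgeR adjusted p = 0.175). With KO 1 left out it was 0.67 and passed (edgeR adjusted p = 0.0444). Hspa2, an HSP70 gene best known from testis, had a log2 fold change of 0.73, which missed the threshold (edgeR adjusted p = 0.142). It too was higher in every KO library than in any Ctrl library.

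The HSP110 gene Hspa4l had the most even levels in Ctrl among the genes that fell. Hspa4l (NM_011020, chromosome 3, 40744500 to 40796103) encodes an exchange factor for HSP70. It had 59.1, 32.2 and 50.4 CPM in KO 1, 2 and 3, against 127, 126 and 138 CPM in Ctrl 1, 2 and 3. The highest KO library stayed well below the lowest Ctrl library. The mean was 47.2 ± 13.7 CPM in KO and 131 ± 6.79 CPM in Ctrl (SD, n = 3 each), 2.76-fold lower in KO, with a log2 fold change of −1.47 (SE 0.279, edgeR adjusted p = 0.0239).

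Hspa4l has the lowest transcript GC content of the 70 genes, 39.5%. With GC offsets its log2 fold change became −0.61 and did not pass (edgeR adjusted p = 0.198). The other HSP110 genes did not pass. Hsph1, which encodes HSP105, had 80.1, 52.1 and 39.4 CPM in KO 1, 2 and 3, against 67.7, 90.6 and 89.7 CPM in Ctrl 1, 2 and 3 (log2 fold change −0.53, edgeR adjusted p = 0.280). KO 1 lay among the Ctrl libraries and the other KO libraries below them. Leaving out KO 1 gave −0.78, which passed (edgeR adjusted p = 0.0463), while GC offsets gave −0.27, which did not (adjusted p = 0.395). The remaining one is Hspa4, the widely expressed form.

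No HSP90 gene passed edgeR's test, while 1 of the 3 had an unadjusted p below 0.05 and DESeq2 called 1. Hsp90ab1, the constitutive cytosolic form, had 1352, 1502 and 1235 CPM in KO 1, 2 and 3, against 673, 831 and 840 CPM in Ctrl 1, 2 and 3. Each KO library was above each Ctrl library. The log2 fold change was 0.80 (SE 0.234) and did not pass (edgeR adjusted p = 0.0633). It passed without KO 1 (0.88, adjusted p = 0.0284) and with GC offsets (0.81, adjusted p = 0.0439).

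Hsp90aa1, the stress-inducible cytosolic form, had 123, 79.2 and 130 CPM in KO 1, 2 and 3, against 139, 137 and 159 CPM in Ctrl 1, 2 and 3. The KO libraries were all below the Ctrl libraries, by a narrow gap for KO 3. It did not pass (log2 fold change −0.39, edgeR adjusted p = 0.349), and with GC offsets the value was 0.12. Per kilobase of transcript, the level of Hsp90ab1 over that of Hsp90aa1 was 14.3, 24.7 and 12.4 in KO 1, 2 and 3, against 6.30, 7.89 and 6.88 in Ctrl 1, 2 and 3. The ratio was higher in every KO library than in any Ctrl library. The ratios were chosen after the values were seen and are given with no test. In each ratio plotted the first gene has the higher transcript GC content. It is 51.0% and 43.7% for Hsp90ab1 and Hsp90aa1. For Hspe1 and Hspd1 it is 51.7% and 46.8%, and for Hspa5 and Hsp90b1 45.6% and 43.8%. The part of GC content in the ratios was not tested. A further ratio, Hspa1a over Hspa1b, went the other way, at 2.71 to 3.19 in KO and 3.80 to 7.11 in Ctrl.

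Hspe1, the HSP10 gene that caps the HSP60 chamber in mitochondria, had 29.4, 26.9 and 31.8 CPM in KO 1, 2 and 3, against 18.1, 11.3 and 14.7 CPM in Ctrl 1, 2 and 3. The groups did not overlap. Its log2 fold change of 1.00 (SE 0.283) did not pass (edgeR adjusted p = 0.0603), and it passed without KO 1 (1.06, adjusted p = 0.0256) and with GC offsets (0.97, adjusted p = 0.0410). Hspd1, the HSP60 gene itself, had 57.0, 36.7 and 41.5 CPM in KO 1, 2 and 3, against 38.6, 52.4 and 49.3 CPM in Ctrl 1, 2 and 3. The groups overlapped, and the log2 fold change was −0.053 (edgeR adjusted p = 0.913).

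Per kilobase, Hspe1 over Hspd1 was 1.61, 2.30 and 2.40 in KO 1, 2 and 3, against 1.47, 0.678 and 0.930 in Ctrl 1, 2 and 3. KO 1 was just above Ctrl 1 and the other libraries lay far apart. Hspd1 and Hspe1 are transcribed away from each other from 1 shared stretch on chromosome 1, and their entries overlap, so their counts are uncertain where they share bases.

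That stretch is printed because both genes have it as a promoter and differ in their values. The longer motif, GAANNTTC followed after 2 bases by a further GAA, occurred on either strand in 4 of the 56 chaperone promoters (7.14%), those of Hspd1, Hspe1, Hsph1 and Dnajb6, and in 0.662% of all genes. In Hspe1 (chr1:55087998-55088097, plus strand) 2 matches on opposite strands overlap, and the capitals cover both.
Hspe1: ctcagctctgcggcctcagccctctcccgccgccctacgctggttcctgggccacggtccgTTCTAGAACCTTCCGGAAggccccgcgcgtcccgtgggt
The same genomic bases hold the matches of Hspd1, which lies on the minus strand.

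**Figure D3:**
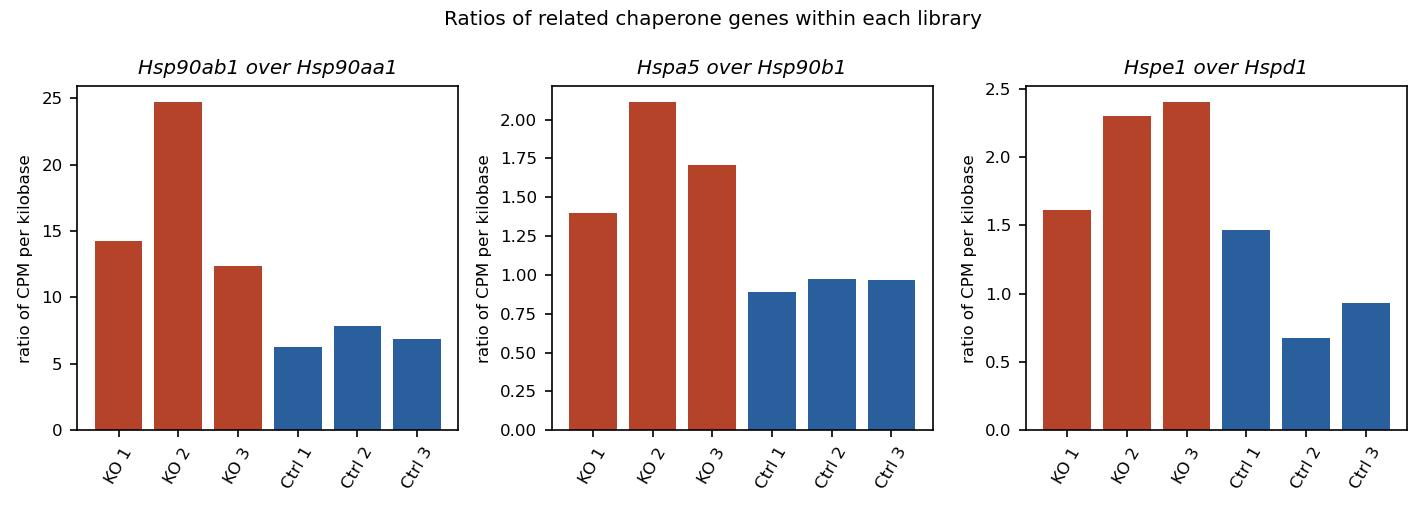
Ratio of the levels of related chaperone genes (vertical axis, ratio of CPM per kilobase of transcript, from 0) in each library, with the 3 KO libraries in red left of the 3 Ctrl libraries in blue. Hsp90ab1 over Hsp90aa1 is 12.4 to 24.7 in KO and 6.30 to 7.89 in Ctrl, Hspa5 over Hsp90b1 is 1.40 to 2.11 in KO and 0.891 to 0.975 in Ctrl, and Hspe1 over Hspd1 is 1.61 to 2.40 in KO and 0.678 to 1.47 in Ctrl.

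The 8 chaperone genes of the ER (Hspa5, Hsp90b1, Hspa13, Dnajb9, Dnajb11, Dnajc1, Dnajc3 and Dnajc10) had no call by edgeR, DESeq2 or limma-voom, and none had an unadjusted p below 0.05 by edgeR. In all 8, KO 1 was the highest of the KO libraries. Hspa5 encodes BiP, the HSP70 of the ER. It had 1437, 1112 and 711 CPM in KO 1, 2 and 3, against 630, 894 and 963 CPM in Ctrl 1, 2 and 3. The groups overlapped, and the log2 fold change was 0.39 (edgeR adjusted p = 0.445).

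Hsp90b1 encodes GRP94, the HSP90 of the ER. It had 791, 405 and 321 CPM in KO 1, 2 and 3, against 544, 706 and 767 CPM in Ctrl 1, 2 and 3. KO 1 was above all Ctrl libraries and the other KO libraries below them (log2 fold change −0.41, edgeR adjusted p = 0.482). Leaving out KO 1 gave −0.82, which passed (edgeR adjusted p = 0.0489). With GC offsets it was 0.011. Per kilobase, Hspa5 over Hsp90b1 was 1.40, 2.11 and 1.71 in KO 1, 2 and 3, against 0.891, 0.975 and 0.966 in Ctrl 1, 2 and 3. That ratio was higher in every KO library than in any Ctrl library.

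Dnajb9 encodes ERdj4, which keeps the stress sensor IRE1 inactive together with BiP. It had 109, 17.5 and 16.0 CPM in KO 1, 2 and 3, against 21.8, 56.8 and 65.0 CPM in Ctrl 1, 2 and 3. KO 1 was above all Ctrl libraries and the other KO libraries were below them, so the log2 fold change of −0.0071 averages over libraries that lie far apart (SE 0.763, edgeR adjusted p = 0.996). Without KO 1 it was −1.44 and passed (edgeR adjusted p = 0.0458), while with GC offsets it was 0.44 and did not (adjusted p = 0.507). Hspa13, an HSP70 of microsomes, also had KO 1 above all Ctrl libraries and the other KO libraries below them, with 47.0, 15.9 and 16.7 CPM in KO 1, 2 and 3, against 21.8, 40.2 and 43.5 CPM in Ctrl 1, 2 and 3. Dnajc3, which encodes the inhibitor P58IPK, had 144, 96.6 and 79.9 CPM in KO 1, 2 and 3, against 70.5, 103 and 105 CPM in Ctrl 1, 2 and 3. The groups overlapped and the log2 fold change was 0.20 (edgeR adjusted p = 0.683), and with GC offsets it was 0.74 and passed (adjusted p = 0.0398).

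The promoters of Hspa5, Hsp90b1 and Dnajc3 are printed because they alone among the 56 chaperone promoters hold the ER stress element. This motif, CCAAT and CCACG parted by 9 bases of any kind, on either strand, was found in 5.36% of the 56 and in 0.137% of all genes. The capitals mark the matches in Hspa5 (chr2:34771980-34772059, plus strand), Hsp90b1 (chr10:86705515-86705674, minus strand, 2 matches of which that nearer the start is on the other strand) and Dnajc3 (chr14:118937812-118937891, plus strand).
Hspa5: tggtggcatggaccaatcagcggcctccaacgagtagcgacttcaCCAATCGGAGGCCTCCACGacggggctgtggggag
Hsp90b1: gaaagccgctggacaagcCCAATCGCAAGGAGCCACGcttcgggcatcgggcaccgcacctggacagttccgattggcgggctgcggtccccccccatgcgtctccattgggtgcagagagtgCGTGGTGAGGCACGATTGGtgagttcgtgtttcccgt
Dnajc3: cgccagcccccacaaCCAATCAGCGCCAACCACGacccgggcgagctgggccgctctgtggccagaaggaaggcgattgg
None of the 3 genes that share the motif passed the test with all libraries, and their log2 fold changes differed in sign (0.39 for Hspa5, −0.41 for Hsp90b1 and 0.20 for Dnajc3).

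Of the 43 DNAJ genes none rose and 2 fell (4.65%, against 4.44% of all genes that fell), both of class C. Dnajc6 (NM_001355179, chromosome 4, 101496648 to 101642799) encodes auxilin, which strips clathrin from vesicles in neurons. It had 14.5, 13.9 and 30.1 CPM in KO 1, 2 and 3, against 80.3, 68.3 and 64.7 CPM in Ctrl 1, 2 and 3. KO 3 was the highest KO library and still under the lowest Ctrl library. The mean was 19.5 ± 9.21 CPM in KO and 71.1 ± 8.18 CPM in Ctrl (SD, n = 3 each), 3.65-fold lower in KO, with a log2 fold change of −1.87 (SE 0.355, edgeR adjusted p = 0.0239). KO 3 was also the KO library with the most photoreceptor transcripts, whose 14 markers summed to 4995, 10319 and 24452 CPM in KO 1, 2 and 3 and to 34846, 19523 and 22459 CPM in Ctrl 1, 2 and 3. The 12 bipolar and amacrine markers summed to 381, 466 and 732 CPM in KO 1, 2 and 3 and to 995, 781 and 758 CPM in Ctrl 1, 2 and 3. Of each of these neuronal lists 2 genes fell (14.3% and 16.7%, against 4.44% of all genes) and none rose (against 5.85%). The 7 detected markers of ganglion cells, which are neurons too, went the other way. Among them 2 rose (Rbpms and Sncg, 28.6%, against 5.85% of all genes) and none fell (against 4.44%). Their sums were 326, 344 and 315 CPM in KO 1, 2 and 3 and 75.5, 115 and 97.8 CPM in Ctrl 1, 2 and 3. The part of these lists in the results for Dnajc6 was not tested.

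Dnajc28 (NM_001099738, chromosome 16, 91614257 to 91618999) had 12.4, 5.50 and 11.5 CPM in KO 1, 2 and 3, against 34.1, 31.7 and 29.2 CPM in Ctrl 1, 2 and 3. The groups were far apart and the Ctrl libraries close together. The mean was 9.80 ± 3.76 CPM in KO and 31.7 ± 2.44 CPM in Ctrl (SD, n = 3 each), 3.23-fold lower in KO, with a log2 fold change of −1.69 (SE 0.36, edgeR adjusted p = 0.0302).

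The other synaptic and neuronal DNAJ genes did not pass. Dnajc5 encodes CSP-alpha, the J protein of synaptic vesicles. It had 120, 147 and 143 CPM in KO 1, 2 and 3, against 252, 242 and 224 CPM in Ctrl 1, 2 and 3. The KO libraries were all below the Ctrl libraries, with a log2 fold change of −0.81 (SE 0.218) just outside the threshold (edgeR adjusted p = 0.0523). It passed without KO 1 (−0.66, adjusted p = 0.0429) and with GC offsets (−0.75, adjusted p = 0.0336). Dnajc12, which acts on the enzymes that make serotonin and dopamine, had a log2 fold change of −0.96 (edgeR adjusted p = 0.0729). Its value was −1.03 with GC offsets and then passed (adjusted p = 0.0351).

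The 4 class A genes, the general partners of cytosolic and mitochondrial HSP70, all had log2 fold changes below 0. None passed edgeR's test, with 1 at an unadjusted p below 0.05 and 1 called by DESeq2. Dnaja1 had 97.0, 22.1 and 23.0 CPM in KO 1, 2 and 3, against 32.4, 69.6 and 76.1 CPM in Ctrl 1, 2 and 3. KO 1 was above all Ctrl libraries and the other KO libraries below them, as for Dnajb9 (log2 fold change −0.33, edgeR adjusted p = 0.753). Without KO 1 it was −1.32 and passed (edgeR adjusted p = 0.0326), and with GC offsets it was 0.16. Dnaja2 had 224, 82.6 and 84.9 CPM in KO 1, 2 and 3, against 100, 145 and 148 CPM in Ctrl 1, 2 and 3, again with KO 1 highest and the other KO libraries below all Ctrl libraries. Dnaja4 had a log2 fold change of −1.01 (edgeR adjusted p = 0.0894).

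None of the 12 class B genes passed edgeR's test either, with 2 at an unadjusted p below 0.05 and 2 called by DESeq2. Dnajb1, the main stress-inducible partner of HSP70, had 312, 549 and 427 CPM in KO 1, 2 and 3, against 288, 274 and 306 CPM in Ctrl 1, 2 and 3. The KO libraries were all above the Ctrl libraries, KO 1 by little. The log2 fold change was 0.57 (SE 0.268, edgeR adjusted p = 0.190), and without KO 1 it was 0.83 and passed (adjusted p = 0.0282). Dnajb5 had a log2 fold change of 1.13 (edgeR adjusted p = 0.0624), and without KO 1 it was 1.42 and passed (adjusted p = 0.00877). Dnajb4, a relative of Dnajb1, had 91.6, 27.8 and 29.0 CPM in KO 1, 2 and 3, against 32.4, 66.7 and 69.1 CPM in Ctrl 1, 2 and 3, with KO 1 and the other KO libraries on either side of the Ctrl libraries as for Dnajb9 and Dnaja1.

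Dnajb7 had the lowest log2 fold change of the 67 genes and Dnajc22 the highest after those of Hspb1, and both genes had few counts. Dnajb7 had 0, 2 and 10 counts in KO 1, 2 and 3, against 36, 36 and 11 in Ctrl 1, 2 and 3. Scaled to library size, the KO libraries were all below the Ctrl libraries, with 0.343 CPM in KO 3 and 0.717 CPM in Ctrl 3 the closest. The log2 fold change of −2.95 did not pass (SE 1.07, edgeR adjusted p = 0.111), and without KO 3 it was −4.63 (adjusted p = 0.0781). Dnajc22 had 23, 25 and 39 counts in KO 1, 2 and 3, against 0, 13 and 2 in Ctrl 1, 2 and 3, and its log2 fold change of 2.25 did not pass (SE 1.11, edgeR adjusted p = 0.210). Without Ctrl 2 it was 4.21 (adjusted p = 0.180).

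**Figure D4:**
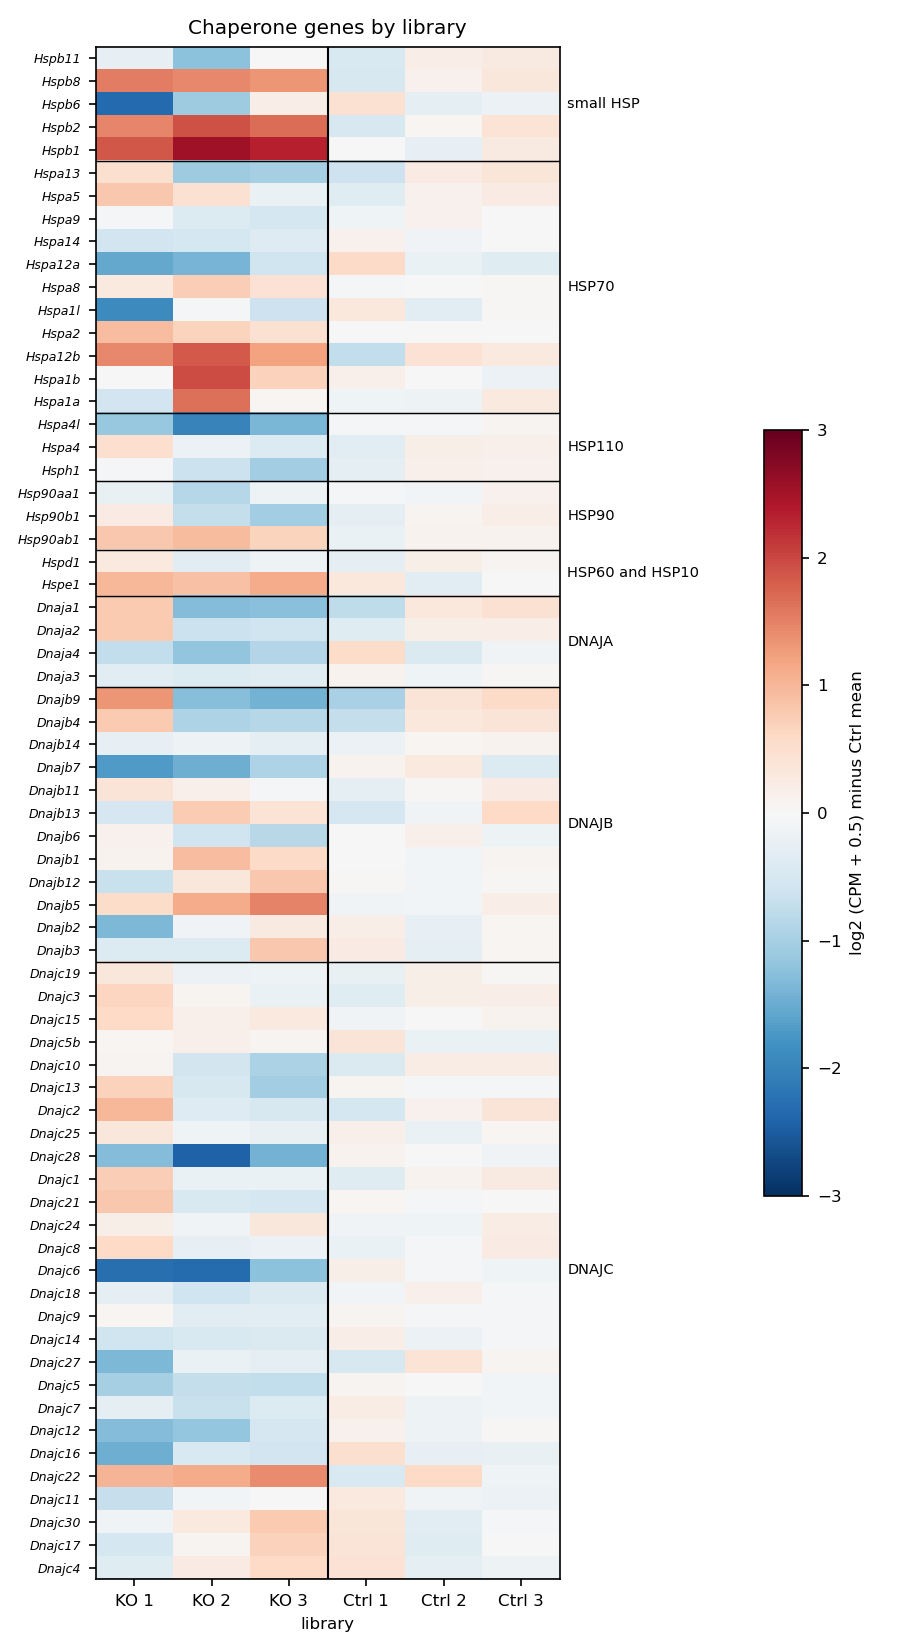
Level of each tested chaperone gene in each library, as log2 (CPM + 0.5) minus the mean of the 3 Ctrl libraries, with the 3 KO libraries left of the 3 Ctrl libraries and the genes of a family ordered by transcript GC content from low to high down the page. Red is above and blue below the Ctrl mean, and colours end at 3 in either direction. Dnaja1, Dnaja2, Dnajb9 and Dnajb4 are red in KO 1 and blue in KO 2 and KO 3, while Hspb1, Hspb2 and Hspb8 are red in all 3 KO libraries.

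Deviations such as those of Dnaja1, Dnajb4 and Dnajb9 in KO 1 ran with transcript GC content across the chaperone genes. Over the 59 genes with a mean of at least 5 CPM, the log2 level in a library minus the mean of the other 2 libraries of its group was set against GC content. Pearson's r was −0.76 in KO 1, 0.72 in KO 2 and 0.50 in KO 3, and 0.47 in Ctrl 1, −0.52 in Ctrl 2 and −0.31 in Ctrl 3. These describe genes within a library, which share its depth and preparation, and the deviations within a group are not independent. Over 12286 genes the values were −0.61, 0.49 and 0.42 in KO 1, 2 and 3, and 0.46, −0.36 and −0.33 in Ctrl 1, 2 and 3, and so ran the same way in each library as over the chaperone genes.

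Of the 30 chaperone genes at or below the median GC content of 47.3%, 28 were higher in KO 1 than in the mean of KO 2 and KO 3, with a median deviation of 0.70 on the log2 scale. Of the 29 above it, 8 were higher in KO 1, with a median deviation of −0.48. The median log2 fold change of KO over Ctrl was −0.14 for the genes at or below 47.3% and 0.14 for those above. All 4 genes that rose lay above 47.3% (Hspb1 60.7%, Hspb2 58.2%, Hspa12b 57.9% and Hspb8 53.0%). All 3 that fell lay below it (Dnajc6 47.0%, Dnajc28 46.1% and Hspa4l 39.5%). With GC offsets 10 of the 67 passed edgeR's test (6 higher and 4 lower, against 12.4% of all genes). Hspb1 (log2 fold change 1.82), Hspb8 (1.31), Dnajc28 (−1.37) and Dnajc6 (−1.55) were among them. Hspa12b (1.04, adjusted p = 0.135), Hspb2 (1.71, adjusted p = 0.0813) and Hspa4l were not. Those that passed with GC offsets and not without were Hspe1, Hsp90ab1, Dnajc3 and Dnajc15 (0.83, adjusted p = 0.0364), all higher in KO, and Dnajc5 and Dnajc12, both lower.

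**Figure D5:**
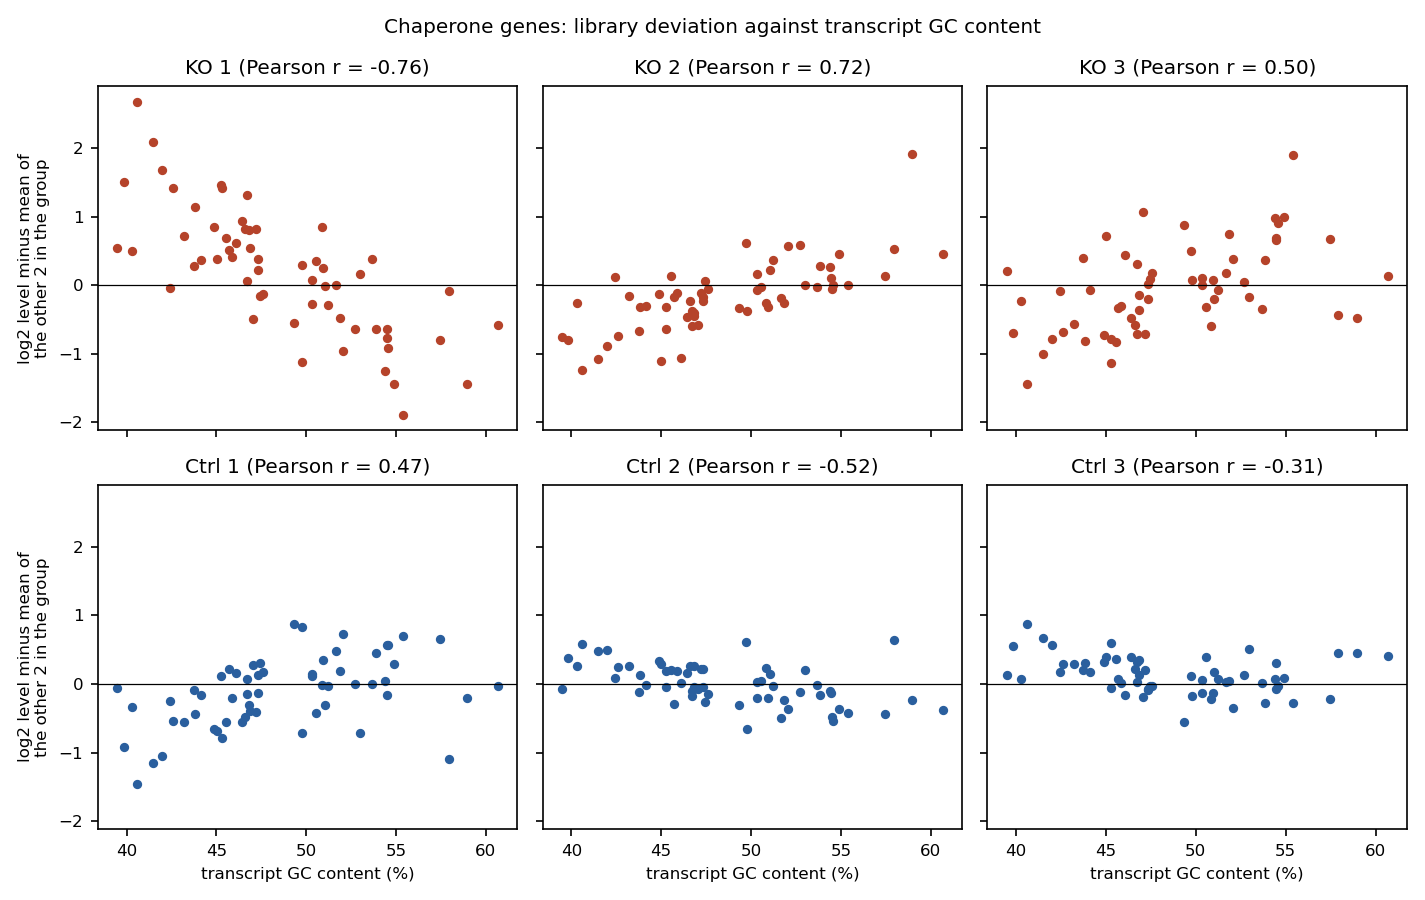
Log2 level of 59 chaperone genes in each library minus the mean of the other 2 libraries of its group (vertical axis), against transcript GC content in percent (horizontal axis), 1 panel a library, KO above in red and Ctrl below in blue. Genes of low GC content lie above 0 in KO 1 (r = −0.76) and below 0 in KO 2 (r = 0.72).

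Few other genes of the chaperone system passed the test. None of the 6 heat shock factor genes passed by edgeR, DESeq2 or limma-voom, and none had an unadjusted p below 0.05 by edgeR. The counts of each list stand beside 5.85% of all genes that rose and 4.44% that fell. Of the 19 HSP90 co-chaperone genes 2 rose (10.5%) and none fell, with 4 at an unadjusted p below 0.05 by edgeR and 3 called by DESeq2. Cdc37, which brings kinases to HSP90, had 306, 472 and 451 CPM in KO 1, 2 and 3, against 210, 202 and 206 CPM in Ctrl 1, 2 and 3. The groups did not overlap and Cdc37 rose 1.99-fold (log2 fold change 0.99, SE 0.251, edgeR adjusted p = 0.0453). Unc45b, a myosin chaperone of muscle, had 41.3, 37.4 and 40.3 CPM in KO 1, 2 and 3, against 11.1, 10.5 and 10.4 CPM in Ctrl 1, 2 and 3. The libraries of each group lay close together, and Unc45b rose 3.73-fold (log2 fold change 1.90, SE 0.246, edgeR adjusted p = 0.0211). With equal endothelial markers neither passed, at −0.34 for Cdc37 (adjusted p = 0.478) and 0.57 for Unc45b (adjusted p = 0.238).

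Among 13 exchange factors and partners of HSP70, Bag3 rose and 2 genes fell (23.1% called, against 10.3% of all genes). By edgeR 7 had an unadjusted p below 0.05, and DESeq2 called 4, against 30.5% and 22.1% of all genes. The groups did not overlap for 76.9% of the 13, against 37.9% of all genes. Bag4 had a log2 fold change of −1.05 (SE 0.236, edgeR adjusted p = 0.0342). Grpel2, a mitochondrial exchange factor, had a log2 fold change of −1.18 (SE 0.257, edgeR adjusted p = 0.0318). With GC offsets neither passed, at −0.54 for Bag4 (adjusted p = 0.164) and −0.80 for Grpel2 (adjusted p = 0.0866). None of the 14 subunits of the TRiC chaperonin and prefoldin passed by edgeR, with 2 at an unadjusted p below 0.05 and 2 called by DESeq2. None of 12 mitochondrial proteostasis genes passed by edgeR, with 2 at an unadjusted p below 0.05, 2 called by DESeq2 and 1 by limma-voom.

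Of 19 genes of the unfolded protein response, 6 had an unadjusted p below 0.05 by edgeR and DESeq2 called 3. Over all genes these shares were 30.5% and 22.1%. By edgeR's adjusted p none fell and 1 rose. It was Sdf2l1, a partner of the ER chaperone complex, with 52.3, 148 and 78.2 CPM in KO 1, 2 and 3, against 26.3, 33.6 and 35.3 CPM in Ctrl 1, 2 and 3. The groups did not overlap and KO 2 was the highest (log2 fold change 1.55, SE 0.390, edgeR adjusted p = 0.0449). Of 10 tested ER folding enzymes and lectins, 5 had an unadjusted p below 0.05 by edgeR and DESeq2 called 5, against 30.5% and 22.1% of all genes. By edgeR's adjusted p 1 rose, the prolyl isomerase gene Ppib (log2 fold change 1.07, SE 0.236, edgeR adjusted p = 0.0324). With equal endothelial markers neither passed, at 0.22 for Sdf2l1 (adjusted p = 0.670) and −0.25 for Ppib (adjusted p = 0.613), and with GC offsets Sdf2l1 was 1.12 and missed the threshold (adjusted p = 0.0528). The median log2 fold changes of these 7 lists lay between 0.039 for mitochondrial proteostasis and 0.52 for ER folding enzymes, against 0.027 over all genes. It was 0.022 for the 5 tested DNAJ-domain genes with other symbols, none of which passed by edgeR, with 1 at an unadjusted p below 0.05 and 1 called by DESeq2.

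Genes known to respond to tissue dissociation were read beside the chaperones, because the retinas were digested before the sort. Of 15 such genes 3 rose (20.0%, against 5.85% of all genes) and none fell, and their median log2 fold change was 0.75, against 0.027 over all genes. Ier3 (1.73, edgeR adjusted p = 0.0224), Junb (1.35, adjusted p = 0.0371) and Jund (1.93, adjusted p = 0.0404), all early response genes, were the 3. With GC offsets Junb (0.62, adjusted p = 0.108) and Jund (1.33, adjusted p = 0.105) did not pass, and with equal endothelial markers none of them did (Ier3 0.45, Junb 0.016 and Jund 0.47, with adjusted p of 0.359, 0.976 and 0.465). The 15 genes summed to 11225, 21576 and 19416 CPM in KO 1, 2 and 3, against 12248, 10990 and 11906 CPM in Ctrl 1, 2 and 3. KO 2 and KO 3 were above the Ctrl libraries and KO 1 was among them. The part of these genes in the chaperone results was not tested.

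In the authors' deposited table, 8 of 67 chaperone genes had an adjusted p below 0.05 with a positive log2 fold change and 6 with a negative one, against 13.6% and 8.2% of the genes with an adjusted p there. The 7 genes called here were all among them. In the authors' deposited table Hspe1 (adjusted p = 0.00565), Hsp90ab1 (0.00670), Dnajb5 (0.00749) and Hspa2 (0.0462) were also higher in KO. In the authors' deposited table Dnajc5 (0.0304), Hspa12a (0.0393) and Dnajc12 (0.0462) were also lower.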

How the data were processed

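Polyadenylated RNA of CD31+ retinal cells was amplified from low input and sequenced as single reads of 50 bases without strand, per the labels' protocols. Per the submitters' processing notes, the build was mm10 and the tools included STAR, Trimmomatic 0.36, deepTools, edgeR and DESeq2. How reads were counted, and on which annotation, is not given in the sources used here. Per the file headers, the authors deposited raw counts for 34035 transcript entries, size-factor normalized counts (a signal), RPKM, and a log2 fold change with its test score, p-value and adjusted p-value. The counts were used for all tests. RPKM was not used: in 55 of the 70 genes the authors' length lay within 2% of the genomic span, introns included. The count column of Ctrl 3 bore a name unlike its replicate number and was placed by the names of the rest of its group.

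The longest entry of each symbol was kept (29 of the 70 genes had several). The 70 genes matched RefSeq, whose coordinates are 1-based on GRCm38.p6. Entries of 19 overlap another gene's, and counts of near-identical copies are uncertain. The main test of KO against Ctrl was the quasi-likelihood test of edgeR 4.0.16 in R 4.3.3, with TMM scaling, filterByExpr and Benjamini-Hochberg adjustment, and the code was tested on simulated data. SE is the log2 fold change divided by the square root of F. DESeq2 1.42.0 and limma 3.58.1 gave alternatives. Motifs were searched on both strands of RefSeq promoters. Python 3.11.15 made summaries and plots.

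The genes, the lists and the naming rule were chosen with earlier results of these data known. The rule took every chaperone gene past the threshold, 18 fixed genes, the 3 largest and 3 smallest log2 fold changes, and up to 3 called genes of each list. Cryab, Hspa2, Hspa12a, Dnaja4, Dnajb5, Dnajc5 and Dnajc12 were named after their values were seen, as was Dnajc15, called under 1 alternative only. Other genes are named for their levels.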

Additional observations from a re-analysis of the deposited data

How the results depend on the processing

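All 7 genes called kept their direction in all 16 alternatives, and passed the threshold in 10 (Dnajc6), 9 (Hspb1, Hspa4l and Dnajc28), 8 (Hspb8) and 6 (Hspb2 and Hspa12b) of them. Over 42 named genes and 16 alternatives, 672 values were computed: 460 kept their direction and side of the threshold, 134 lost it, 38 gained it and 40 changed sign. The chaperone genes called higher and lower were 4 and 3. They were 2 higher with no filter, 7 and 8 by DESeq2, and 0 and 43 with equal endothelial markers. Without single libraries they ranged between 0 and 10 higher and between 0 and 8 lower. All genes called were 1668, against 3556 by DESeq2, 8326 with equal endothelial markers, and 0 to 4927 without single libraries. The higher share of calls was 56.8%, against 0.841% with equal endothelial markers, where the chaperone median was −1.33. That median was −0.21 to 0.087 without single libraries.

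Replicate numbers name different pups, and deviations of same-numbered libraries correlated at −0.496, 0.0703 and −0.319, so the numbers were not taken as pairs. With the replicate block, 0 chaperone genes were called higher and 0 lower by edgeR (15 at an unadjusted p below 0.05, against 21.0% of all genes), and 1 gene in all. With GC offsets and the replicate block the calls were 0 and 0 (18 unadjusted, against 25.6%), and 2 in all.

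Changes of sign were as follows, as log2 fold changes. Dnajb9 was 0.0084 with RLE scaling, 0.063 with upper quartile scaling and 0.0029 by DESeq2, and Hspd1 was 0.020 with upper quartile scaling. With GC offsets Dnaja1 was 0.16, Dnajb9 0.44, Hsp90aa1 0.12, Hsp90b1 0.011, Hspa9 0.032 and Hspd1 0.24. With GC offsets and the replicate block Dnaja1 was 0.090, Dnajb9 0.28, Hsp90aa1 0.086, Hspa1a −0.093, Hspa9 0.029 and Hspd1 0.24. With equal endothelial markers Cdc37 was −0.34, Cryab −0.75, Dnajb1 −0.77, Dnajb5 −0.15, Dnajc3 −1.08, Hsp90ab1 −0.50, Hspa1a −0.67, Hspa1b −0.045, Hspa2 −0.60, Hspa5 −0.91, Hspa8 −0.83, Hspe1 −0.36 and Ppib −0.25. Without single libraries Dnajc3 ranged between −0.0017 and 0.41, Dnaja1 between −1.32 and 0.023, Dnajb9 between −1.44 and 0.42, Hspa1a between −0.23 and 1.19, and Hspd1 between −0.19 and 0.094. The cause of these changes was not tested.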
